A study of Rattus norvegicus with 6 samples.

Results

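The genes of the platelet-derived growth factor (PDGF) system, 4 ligand genes (Pdgfa, Pdgfb, Pdgfc and Pdgfd) and 2 receptor genes (Pdgfra and Pdgfrb), were followed in cultured nerve-derived Schwann cell precursors and skin-derived precursors of the newborn rat. Members were taken by gene symbol: a probe set counted when the platform's annotation gave it a single symbol and that symbol was one of the 6. Each gene had 1 such probe set, so no choice between probe sets was needed, and all 6 of 6 genes were measured among 18166 genes in all. NSCPs (nerve-derived Schwann cell precursors, the cultured precursors of peripheral glia) came from the sciatic nerve and SKPs (skin-derived precursors, sphere-forming cells of the dermis) from back skin, both of newborn wild-type Sprague-Dawley rats, with 3 independent isolates and 1 array each. Per the labels' protocols NSCPs grew on laminin and poly-D-lysine with neuregulin-1β at 25 ng/ml and forskolin at 5 μM, and SKPs grew as spheres with FGF2 at 40 ng/ml and EGF at 20 ng/ml; no PDGF is named in either medium. Supplements differed too, with N2 at 2% for NSCPs and B27 at 2% for SKPs. The assignment of B27 to SKPs is an interpretation, since the protocol text does not set the media clearly apart. The effects of the source tissue, the medium and the form of growth cannot be told apart in this design. No group was purified by a sort that the labels mention.

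PDGFs are secreted dimers of A, B, C or D chains that bind receptor tyrosine kinases on mesenchymal cells and make the receptors pair and phosphorylate each other. PDGF-AA and PDGF-CC act through PDGF receptor alpha, the product of Pdgfra, PDGF-BB binds both receptors, and PDGF-DD acts mainly through PDGF receptor beta, the product of Pdgfrb. The A and B chains are cleaved inside the cell, whereas the C and D chains leave the cell latent and need an extracellular protease. In skin, receptor alpha marks fibroblasts of the dermis, and receptor beta is carried by fibroblasts, pericytes and cultured Schwann cells.

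Of the 6 genes, 5 differed between the cultures, 1 higher and 4 lower in NSCPs. The ligand gene Pdgfa was 4.45-fold higher in NSCPs, while the gene of its receptor, Pdgfra, was at the background of the array in NSCPs and far above it in SKPs. The other receptor gene, Pdgfrb, was lower in NSCPs by 2.48-fold and remained far above background there. The ligand genes Pdgfc and Pdgfd were both lower in NSCPs, and Pdgfb was within background in both cultures. These calls are from limma, fitted over all 18166 genes with Benjamini-Hochberg adjustment and a threshold of 0.05. Over all genes 43.7% were called, 25.2% higher and 18.6% lower in NSCPs, so a call by itself is common in this comparison.

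The stretches around the transcription starts are shown for the ligand gene that was higher in NSCPs (Pdgfa) and for the 2 genes that were at background there and well above it in SKPs (Pdgfd and Pdgfra), so that the member higher in NSCPs stands beside those not above background there. The sequences are from RefSeq (build GRCr8), run from 250 bases before to 50 bases after the start, and are written 5′ to 3′ on the gene's strand. Capitals mark the GC box (GGGCGG, or CCGCCC on the other strand) and the CCAAT box (CCAAT, or ATTGG).
Pdgfa, chr12:20759116-20759415, plus strand: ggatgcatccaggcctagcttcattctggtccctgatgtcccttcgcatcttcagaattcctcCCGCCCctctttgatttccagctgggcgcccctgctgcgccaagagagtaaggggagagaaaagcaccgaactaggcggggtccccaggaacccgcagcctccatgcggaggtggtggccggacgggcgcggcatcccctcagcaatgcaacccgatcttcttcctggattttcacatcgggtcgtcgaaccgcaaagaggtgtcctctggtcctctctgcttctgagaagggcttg
Pdgfd, chr8:11773258-11773557, plus strand: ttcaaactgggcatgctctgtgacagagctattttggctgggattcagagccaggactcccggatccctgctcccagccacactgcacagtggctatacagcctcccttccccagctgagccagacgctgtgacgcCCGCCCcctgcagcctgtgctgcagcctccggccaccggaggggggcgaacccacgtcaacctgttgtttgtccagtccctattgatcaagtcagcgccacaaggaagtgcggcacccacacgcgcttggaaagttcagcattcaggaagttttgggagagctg
Pdgfra, chr14:33408467-33408766, minus strand: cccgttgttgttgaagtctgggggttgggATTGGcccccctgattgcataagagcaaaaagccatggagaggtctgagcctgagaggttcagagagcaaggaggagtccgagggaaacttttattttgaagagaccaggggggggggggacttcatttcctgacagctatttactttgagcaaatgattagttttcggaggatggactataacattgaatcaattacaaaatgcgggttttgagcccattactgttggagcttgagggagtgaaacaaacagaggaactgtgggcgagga

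Of the 6 members, 5 were found in the promoter table, all but Pdgfrb. The Pdgfa and Pdgfd stretches each held 1 GC box, as did that of Pdgfb, and those of Pdgfc and Pdgfra held 0; the motif occurs in 34.9% of 27457 stretches of the same length. The Pdgfra stretch held 1 CCAAT box and the other 4 held 0, against 37.7% of all stretches. TATAAA, the EGR motif GCGGGGGCG and the Sox motif ACAAT, searched on both strands, were found in none of the 5, and occur in 14.3%, 2.78% and 33.1% of all stretches. No motif overlapped another. Pdgfra had the lowest GC content of the 5 (48.0%, with 5 CpG dinucleotides), and the other 4 lay between 58.0% and 62.0%, with 12 to 22 CpG. The median over all stretches was 52.3% GC and 7 CpG. These matches describe letters in a window and were set against no binding data.

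Levels are the authors' log2 values, and a step of 1 is a doubling. As a background, the 95th percentile of the mean levels of 1344 olfactory and vomeronasal receptor genes was used, which was 5.50. From 63.8% to 65.8% of genes on each array lay above it. Levels of different probe sets are not set against each other, since probes differ in brightness; only differences between the cultures are. In whole cultures, fewer cells of a type and less RNA per cell cannot be told apart.

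Pdgfa encodes the A chain, the ligand of receptor alpha. It stood at 9.66, 9.84 and 9.87 in the 3 NSCP cultures, against 7.64, 7.52 and 7.73 in the 3 SKP cultures. All NSCP arrays were above all SKP arrays, with a gap of 1.93 between the groups, and both groups were above background. The difference was 2.15 on the log2 scale (SE 0.12, 95% interval from 1.87 to 2.43), at an adjusted p of 2.25e-06 in limma. Among all genes it ranked 351 of 18166 from the top of the differences toward NSCPs.

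Pdgfb encodes the B chain, which binds both receptors. It was at 5.27, 5.69 and 5.37 in NSCPs, against 5.37, 5.18 and 5.06 in SKPs, and the groups overlapped. NSCP replicate 2 was the only array above the background level. The difference of 0.24 (SE 0.15) did not pass, with an adjusted p of 0.222 in limma and a 95% interval from -0.10 to 0.59. With each array centred on its median, an alternative that raises the median difference of all genes by 0.20, the difference of Pdgfb was 0.45 and passed (adjusted p = 0.0273 in limma). Endothelial cells and platelets are the usual sources of the B chain in the body. Of 7 measured endothelial markers 5 were within background in both cultures and the others above it in both. The mean over the 7 ran from 5.10 to 5.22 in NSCP arrays and from 5.11 to 5.28 in SKP arrays. Platelet markers are given further below. The part of either cell type in the Pdgfb level was not tested.

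Pdgfc encodes the C chain, a latent ligand of receptor alpha. Its level was 6.72, 6.97 and 6.71 in NSCPs, against 9.74, 9.30 and 9.95 in SKPs. Every NSCP array was below every SKP array, by at least 2.33, and above background. The SKP cultures spread more (SD 0.33) than the NSCP cultures (SD 0.15). Pdgfc was 7.27-fold lower in NSCPs (difference -2.86, SE 0.18, adjusted p = 3.91e-06 in limma), and both sides of this difference were above background.

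Pdgfd encodes the D chain, a latent ligand of receptor beta. It was at 4.44, 4.10 and 4.43 in NSCPs, against 8.37, 8.30 and 8.33 in SKPs. All NSCP arrays were below the background level, and the SKP arrays were above it and within 0.06 of each other. The difference was -4.01 (SE 0.13, adjusted p = 1.12e-07 in limma). Because the NSCP side rests on background, the fold is given as a bound: Pdgfd was at least 7.15-fold lower in NSCPs, taking the SKP mean over the background level.

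Pdgfra encodes receptor alpha, which binds the A and C chains. It read 5.44, 5.42 and 5.46 in NSCPs, against 12.31, 12.33 and 12.34 in SKPs. The NSCP arrays lay just under the background level, and the groups were separated by 6.85. The difference was -6.88 (SE 0.11, adjusted p = 1.03e-08 in limma). With a background of 5.32 from a smaller set of 227 receptor genes, the NSCP arrays would lie just above the line. Taken over the level of 5.50, Pdgfra was at least 114-fold lower in NSCPs. The spread between replicates was 0.02 in NSCPs and 0.01 in SKPs (SD over 3 arrays), which puts Pdgfra in the lowest 0.022% of all genes by replicate SD. The NSCP part of this SD was taken within background, so it does not measure the spread of the transcript there.

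Pdgfrb encodes receptor beta, which binds the B and D chains. Its level was 9.71, 10.28 and 10.01 in NSCPs, against 11.29, 11.31 and 11.33 in SKPs. All arrays were well above background, the groups did not overlap, and the NSCP cultures spread more (SD 0.29) than the SKP cultures (SD 0.02). Pdgfrb was lower in NSCPs, with a difference of -1.31 (SE 0.16, 95% interval from -1.67 to -0.95, adjusted p = 1.94e-04 in limma).

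**Figure D1:**
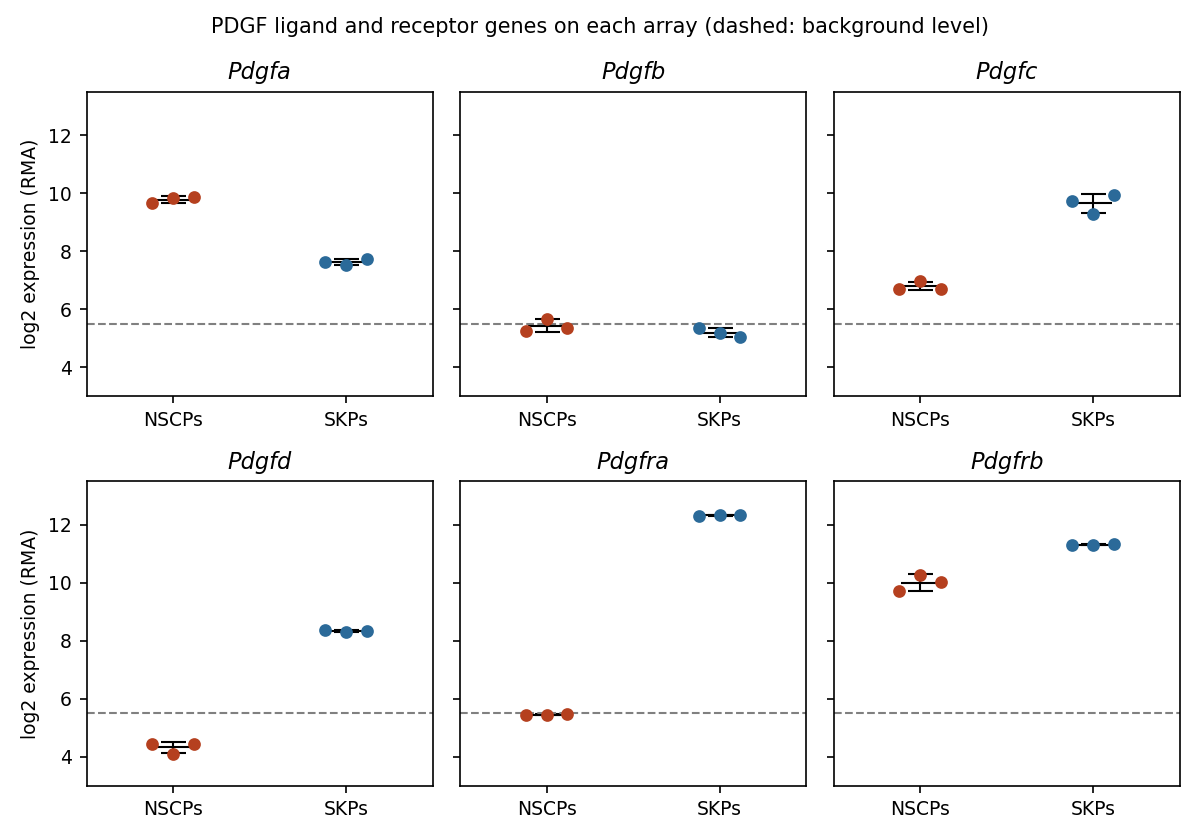
Level of each PDGF gene (y axis, log2 expression) on the 3 NSCP arrays and the 3 SKP arrays; points are arrays, bars are the mean and SD, and the dashed line is the background level of 5.50. Pdgfa is higher in NSCPs, Pdgfb overlaps at background, and the other 4 genes are lower in NSCPs, with Pdgfd and Pdgfra under the line there.

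NSCP and SKP arrays did not overlap in 5 of the 6 members, which was so for 56.6% of all genes. Set against the sizes of all differences, one at least as large as that of Pdgfc in either direction was found in 3.51% of genes, as large as that of Pdgfa in 6.01% and as large as that of Pdgfrb in 12.8%. No such share is given for Pdgfb, Pdgfd and Pdgfra, which have a group mean within background. The bound for Pdgfd, at least 7.15-fold lower, lies close to the 7.27-fold of Pdgfc, so these values give no order between the 2 genes. The median difference of all genes was 0.14.

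**Figure D2:**
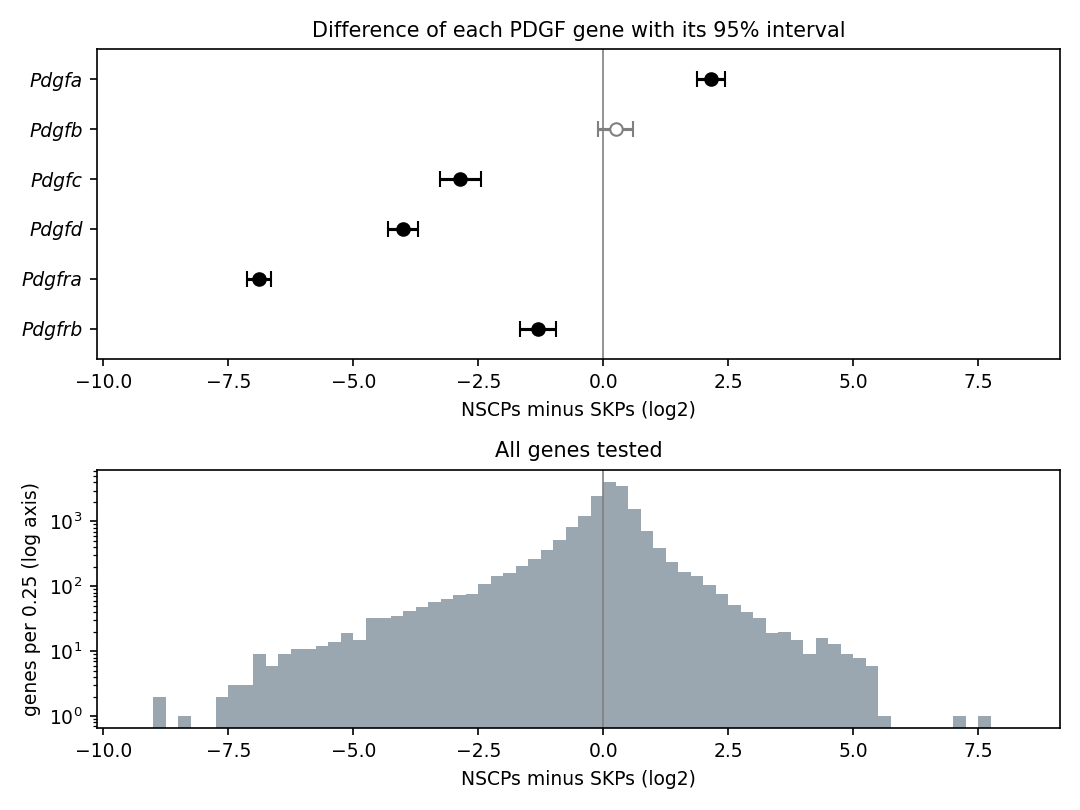
Top: log2 difference of each PDGF gene (NSCPs minus SKPs) and the 95% interval of the limma fit (filled points passed the threshold). Bottom: the same difference for all 18166 genes, as genes per bin on a log axis. Pdgfra at -6.88 lies in the left tail, with its NSCP side within background, Pdgfa at 2.15 to the right, and the interval of Pdgfb crosses 0.

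Whether members changed unequally was asked within each array, from the log2 value of a member minus that of another, compared between the groups by a 2-sided exact permutation test over the 6 arrays. The change of Pdgfra minus that of Pdgfrb, NSCPs minus SKPs, was -5.58 on the log2 scale. The change of Pdgfa minus that of Pdgfb was 1.91, minus that of Pdgfc 5.02 and minus that of Pdgfd 6.17. In each of these 4 comparisons the 3 NSCP arrays lay apart from the 3 SKP arrays, and the exact p was 0.10 (0.10 adjusted over the 4), the smallest that 3 against 3 arrays can give, so none can pass 0.05. The comparisons with Pdgfb, Pdgfd and Pdgfra include a group mean within background.

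Proteases that activate the ligands had 5 of 7 measured genes lower and 0 higher in NSCPs. Over all genes 18.6% were lower and 25.2% higher, the shares beside which each list below is to be read. Limma at an unadjusted p under 0.05 also gave 0 higher, and 1 was higher with median-centred arrays. The list's median difference was -0.72. Plau, the gene of urokinase, which activates the D chain, was 4.00-fold lower: 5.41, 6.19 and 5.59 in NSCPs, against 8.20, 7.72 and 7.28 in SKPs (difference -2.00, adjusted p = 3.71e-04 in limma). The NSCP mean of Plau, 5.73, was close to the background level and NSCP replicate 1 was under it, so this fold rests on a dim level. St14, which encodes matriptase, was also lower (-0.72), with an NSCP mean within background, and lost its call with array weights (adjusted p = 0.0629 in limma). The convertase genes Pcsk5 (-1.09) and Furin (-0.99), whose products cleave the A and B chains inside the cell, were lower as well. Plat, the gene of tissue plasminogen activator, which activates the C chain, was chosen after its values were seen: its level was 12.44 ± 0.07 in NSCPs, against 12.23 ± 0.23 in SKPs (SD over 3 arrays), a difference of 0.21 that missed the threshold (adjusted p = 0.257 in limma).

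Genes of co-receptors and proteins that bind PDGF had 5 of 6 measured members lower and 0 higher in NSCPs, with a median of -1.69; at an unadjusted p under 0.05 limma gave 0 higher. Lrp1, an endocytic receptor that associates with receptor beta, read 7.52, 7.53 and 7.53 in NSCPs, against 11.62, 11.71 and 11.62 in SKPs, and was 17.5-fold lower (SE 0.11 on the log2 scale, adjusted p = 5.64e-08 in limma). Cspg4, which encodes the NG2 proteoglycan that binds the A chain, was 7.40-fold lower, and Nrp1, a co-receptor gene, 3.66-fold lower. Pdgfrl, which encodes a receptor-like protein without a kinase, differed by -1.50, with its NSCP mean within background.

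Genes of the proximal signalling proteins of the receptors went both ways, with 6 higher and 10 lower among 22 measured (median -0.20). With median-centred arrays 9 were higher and 8 lower, so the larger number of lower genes depended on the scaling. The largest called difference toward NSCPs was that of Src (1.07). The genes named next had the largest differences in either direction, and all were lower. Plcg1, the gene of phospholipase C gamma, was 4.47-fold lower in NSCPs at 8.03 ± 0.21, against 10.19 ± 0.13 in SKPs (SD over 3 arrays). Rasa1, which encodes a Ras-inactivating protein that docks on receptor beta, was lower (-1.83), as were the kinase gene Yes1 (-1.71) and Pik3cb, a catalytic subunit gene of phosphoinositide 3-kinase (-2.21). The 3 NSCP arrays of Pik3cb were at 6.34, 6.61 and 6.67, against 9.47, 8.15 and 8.63 in SKP replicates 1, 2 and 3.

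Kinases and GTPases further downstream had 4 higher and 3 lower among 13 measured, with a median of 0.01, -0.02 after renewed quantile normalization and 0.21 with median-centred arrays, where 4 were higher and 2 lower. All called differences of this list were under 1 on the log2 scale. Pak1 (0.95), Nras (0.91) and Prkca (0.79) were higher in NSCPs and Prkcd (-0.72) was lower.

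Negative regulators had 2 higher and 7 lower among 12 measured, with a median of -0.57, and 1 higher and 6 lower without SKP replicate 1. Cblb, which encodes a ubiquitin ligase that directs activated receptors to degradation, was 10.6-fold lower: 7.09, 6.78 and 6.83 in NSCPs, against 10.32, 10.32 and 10.28 in SKPs (adjusted p = 2.04e-07 in limma). Sla, the gene of an Src-like adaptor that leukocytes also express, was lower (-3.04), with an NSCP mean within background. Spry1, a feedback inhibitor of Ras signalling, was 4.01-fold lower, and Lrig1, a receptor-restraining membrane protein, 2.90-fold lower. The 2 higher genes were Spry2 (0.56) and Acp1 (0.78), the latter with an SKP mean within background.

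Early genes that PDGF induces in fibroblasts had 1 higher (Fosl1, 0.93), 5 lower and 8 not called among 14 measured. This share of calls was near the 43.7% over all genes. The list's median was -0.09, and 0.12 with median-centred arrays, where 4 were higher and 4 lower. Without SKP replicate 1, 3 were higher and 4 lower. Ptgs2, the cyclooxygenase-2 gene, was lower (-5.04) with an NSCP mean within background, and Egr1, an early transcription factor gene, was 5.33-fold lower. Egr1 varied among NSCP cultures, at 9.23, 9.40 and 8.02, against 11.30, 11.46 and 11.13 in SKPs. Ccl2, a chemokine gene (-1.79), and Has2, a hyaluronan synthase gene (-1.41), were also lower. The same genes respond to other factors, among them those in the media, and their part was not tested.

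Over these lists and that of related receptors and their ligands, described next, 80 of 92 genes were measured. Of the 80, 14 were higher and 38 lower in NSCPs. Over all 18166 genes, 4569 (25.2%) were higher and 3376 (18.6%) lower. Within background in both cultures was 1 of the 80, against 5495 of all genes, so these counts compare unequally detected sets. The median difference of the 80 was -0.26, beside 0.14 for all genes. With median-centred arrays the counts were 23 higher and 32 lower, and over all genes the share of calls toward NSCPs was 75.1% in place of 57.5%.

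**Figure D3:**
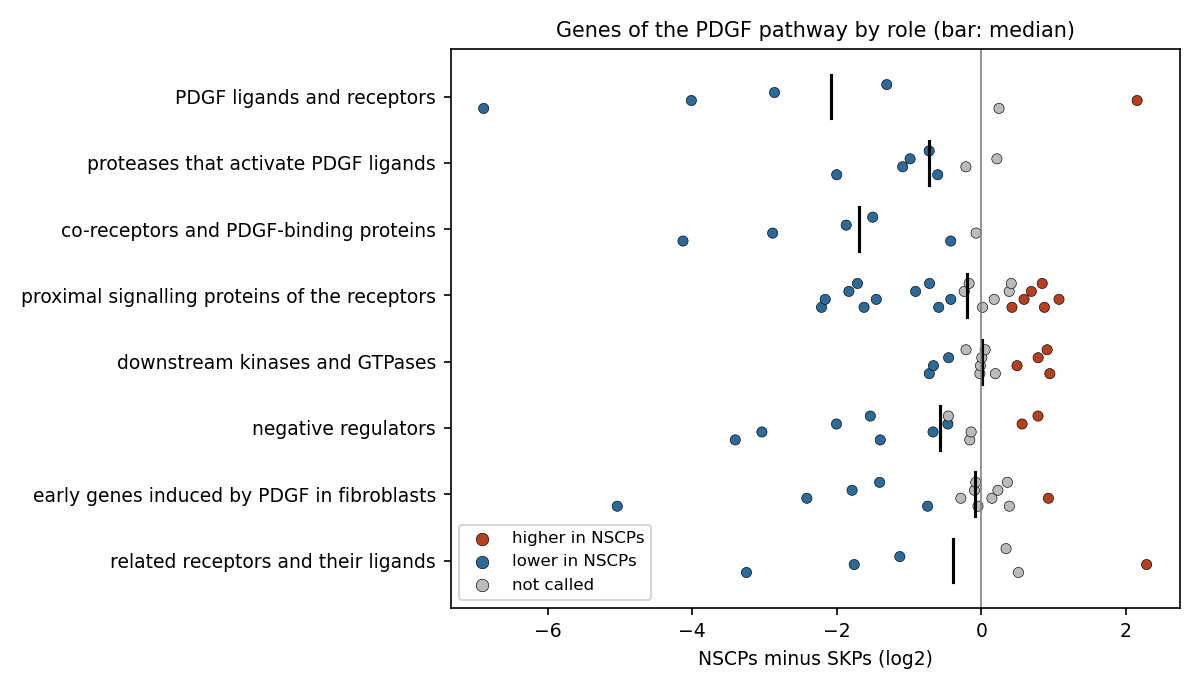
Difference of each measured gene, NSCPs minus SKPs on the log2 scale, for the PDGF ligands and receptors and for the pathway genes by role; colours show the call and black bars the median of each list. Co-receptors (median -1.69) and proteases (median -0.72) lie left of 0, and downstream kinases and GTPases (median 0.01) on both sides of it.

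Genes of other receptors in the same class of receptor tyrosine kinases were set beside them. Csf1r, the receptor gene of macrophages, was lower (-3.25), at 5.70, 6.10 and 5.36 in NSCPs, against 9.86, 8.37 and 8.69 in SKP replicates 1, 2 and 3. Kit read 6.43 ± 0.20 in NSCPs, against 5.92 ± 0.44 in SKPs (SD over 3 arrays), and did not pass (adjusted p = 0.0885 in limma). It passed without SKP replicate 1 (adjusted p = 0.00699 in limma), at a difference of 0.76 in place of 0.51. Flt3 did not pass either (adjusted p = 0.0890 in limma) and was within background in both cultures. It passed without NSCP replicate 2 (adjusted p = 0.0221 in limma). Of the ligand genes, Il34, for the Csf1r product, was 4.87-fold higher in NSCPs, while Csf1, for the same receptor (-1.76), and Kitlg, for the Kit product (-1.13), were lower.

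The genes whose pattern over the 6 arrays was most like that of each called member were found by the Euclidean distance between profiles, each centred on its own mean. For Pdgfa they were Incenp (distance 0.13), E2f7 (0.20) and Chaf1a (0.21). For Pdgfrb they were Emilin1 (0.09), Lrp10 (0.10) and Tmem104 (0.15), and for Pdgfra Anpep (0.33), Serpinf1 (0.35) and Abi3bp (0.40). Cspg4 (0.23), Chst2 (0.31) and Mbnl3 (0.33) were nearest to Pdgfc, and Apoe (0.15), Mir199a2 (0.25) and Ifitm3 (0.28) to Pdgfd. With 6 arrays in 2 groups, these distances mainly compare the size of the difference between the cultures.

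Markers of cell types were measured on the same arrays. Of 11 measured Schwann cell markers 11 were higher in NSCPs, Pmp22, S100b, Ngfr and Erbb3 among them, at a median difference of 4.35. The sum of their log2 levels ran from 117 to 119 on NSCP arrays and from 77.2 to 78.9 on SKP arrays. Such sums of log2 values, here and below, cannot be read as a fold. Of 12 dermal fibroblast markers 12 were lower in NSCPs (median difference -4.86, summed log2 level from 82.5 to 86.8, against 138 to 139 in SKPs). Among them Dcn was at 4.10 in NSCPs, within background, against 12.59 in SKPs. Postn, Col1a1 and Col1a2 were above background in both cultures and differed by -0.83, -0.95 and -0.74. Pericyte and smooth muscle markers, of cells that carry receptor beta, had 1 higher, 3 lower and 5 not called among 9. This share of calls was near the 43.7% over all genes. Their summed log2 levels ran from 55.3 to 55.8 in NSCPs and from 55.3 to 57.7 in SKPs. Differences in opposite directions offset each other in these sums. Mcam was higher in NSCPs (3.43), and Cspg4, also counted among the co-receptors, was lower (-2.89). Median centring of the arrays gave 3 higher and 3 lower here, at a median of 0.09 in place of -0.11. Of 12 macrophage markers, such as Fcer1g, Cd53, Laptm5 and Cd68, 12 were lower in NSCPs, where 9 were within background. Their median difference was -4.54, and their summed log2 level was 61.4 to 63.5 on NSCP arrays and 108 to 123 on SKP arrays. Of 5 megakaryocyte and platelet markers 1 was lower, Pf4, chosen after its values were seen; with median-centred arrays 3 were higher and 1 lower.

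Macrophages can make PDGF chains, so the spread of their markers within SKPs is given beside the ligands. The mean of the 12 macrophage markers in SKP replicates 1, 2 and 3 was 10.21, 9.04 and 9.39, while Pdgfc was 9.74, 9.30 and 9.95 and Pdgfd 8.37, 8.30 and 8.33 in the same order. In that order Pdgfa was 7.64, 7.52 and 7.73, and Pdgfb, within background, 5.37, 5.18 and 5.06. The macrophage markers, Pdgfa, Pdgfc and Pdgfd were all lowest in SKP replicate 2, and Pdgfb in replicate 3. The macrophage markers, Pdgfb and Pdgfd were highest in replicate 1, Pdgfa and Pdgfc in replicate 3, and Pdgfd varied by only 0.06. An order over 3 arrays was not tested. Without SKP replicate 1, the array with the highest macrophage marker mean, the difference of Pdgfc was -2.82, of Pdgfd -4.00 and of Pdgfra -6.89. How much macrophages or fibroblasts contributed to the SKP levels was not tested.

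**Figure D4:**
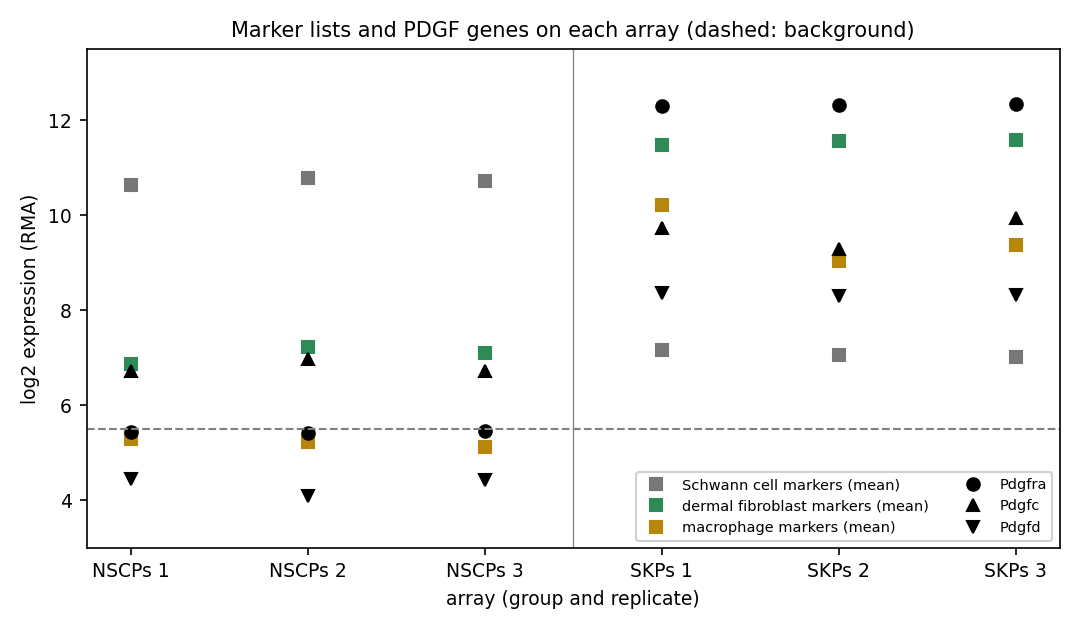
Level (y axis, log2 expression) of Pdgfra, Pdgfc and Pdgfd and the mean of 3 marker lists on each array, NSCP arrays left and SKP arrays right; the dashed line is the background level of 5.50. Macrophage markers range from 9.04 to 10.21 over the SKP arrays, highest in replicate 1, and Pdgfc from 9.30 to 9.95, highest in replicate 3. Pdgfra and Pdgfd stay within 0.03 and 0.06 over the SKP arrays.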

How the data were processed

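RNA of 3 NSCP and 3 SKP cultures was measured on 1 expression array each. The authors deposited log2 values, which they made with RMA in the oligo package, per the submitters' processing notes; RMA corrects for background, quantile-normalizes the arrays and summarises probes into probe sets. Not given in the sources used here are versions, the annotation build, batches and scan dates. Quantile normalization hides a shift common to all genes.

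Of 36685 probe sets, 18511 had a single gene symbol, 575 several and 17599 none. Of the single symbols, 18394 were matched by Entrez ID to RefSeq (GRCr8) and took its symbol, and 117 were kept as given. For the 291 genes with several probe sets, the brightest by mean over all 6 arrays was used, which left 18166 genes. The deposited log2 values were fitted by lmFit and eBayes (limma 3.58.1, R 4.3.3), with a 2-sided test whose p-values were adjusted over all genes (Benjamini-Hochberg, threshold 0.05). Figures were drawn with matplotlib 3.10.9. A level within background is one not above 5.50.

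The members, gene lists and tests were chosen with earlier results of these data known. Named pathway genes are the 4 called genes with the largest difference per list, all genes of the list of related receptors and ligands, and the 3 nearest profiles per called member. Marker lists are represented by up to 4 genes of highest mean. Src, Fosl1, Acp1 and Mcam, each with the largest called difference toward NSCPs in its list, and Plat, Pf4 and Spry2 were named outside this rule. Alternatives covered each array left out, a replicate block, 2 further normalizations, array weights, a robust prior with a trend, a filter on dim genes, averaging the probe sets of a gene, and adjusting over every probe set of the table. The number of arrays limits the precision.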

Additional observations from a re-analysis of the deposited data

How the results depend on the processing

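Pdgfa stayed higher and Pdgfc, Pdgfd, Pdgfra and Pdgfrb lower in NSCPs, each past the threshold, under all 14 alternatives to the fit, with differences from 2.10 to 2.36 for Pdgfa, -3.08 to -2.66 for Pdgfc, -4.07 to -3.81 for Pdgfd, -6.89 to -6.68 for Pdgfra and -1.45 to -1.11 for Pdgfrb. Their highest adjusted p in limma was 0.00139, for Pdgfrb. Pdgfb did not pass except with median-centred arrays (0.45, adjusted p = 0.0273 in limma); its adjusted p over the other alternatives reached 0.493, and the filter on dim genes removed it. Median centring also raised the genes called higher in NSCPs to 8148, against 4569, and the pathway genes called higher to 23, against 14. Array weights put the change of Pdgfa minus that of Pdgfc at 5.22, against 5.02. Of 42 other genes named from the pathway and marker lists by the rule above, 39 kept their call under every alternative in which they were tested. Kit gained a call under 4 alternatives, renewed quantile normalization among them (adjusted p = 0.0230 in limma), and Flt3 under 3, and St14 lost its call with array weights (adjusted p = 0.0629 in limma). Replicate numbers are shared between the groups, but same-numbered arrays deviated together only weakly (r across genes 0.04, 0.05 and 0.03), so they were not taken as pairs; each array did correlate best with its own number, which is a hint from the data and not the design. With the replicate block 4378 genes were higher and 3303 lower in NSCPs, and the calls of the 6 members did not change. A background level of 5.32, from 227 receptor genes named Olr or Vom and chosen after seeing the data, would put the NSCP means of Pdgfra and Pdgfb, 5.44 each, above background. Without detection calls or probe-level data, levels near that line cannot be told from absence of the transcript.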
